A study of Mus musculus with 8 samples.

Results

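The mouse odorant receptor genes Olfr763 to Olfr827 were examined as 1 block of neighbouring genes. They were chosen by name alone, as every gene in the deposited table called Olfr with a number between those of Olfr763 and Olfr827, both included. The rule found 57 of the 1104 Olfr genes in the table, which lists 22553 genes in all. All 57 lie on chromosome 10 between bases 129011287 and 130211128 of the mouse build GRCm38.p6, a stretch of 1.2 Mb. RefSeq annotates 56 of them as protein coding and Olfr779 as a pseudogene. Of the 65 numbers in the range, 8 belong to genes that RefSeq names as pseudogenes. The annotated coding lengths run from 927 to 987 bases, with a median of 939.

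The study measured ribosome footprints and matched input RNA in cells sorted from the mouse main olfactory epithelium, with and without the RNA-binding protein Mex3a. Ngn1-GFP cells carry a green fluorescent transgene driven in neuronal precursors and immature olfactory neurons, and OMP-GFP cells carry a reporter at the gene for olfactory marker protein, which marks mature olfactory neurons. Controls were Mex3a flox/flox or Mex3a flox/+ without a Cre driver. Knockouts (KO) were Mex3a fl/fl with Foxg1iresCre, a Cre line active in the developing olfactory placode and forebrain. The genotype tag of the OMP-GFP KO names OMP-ires-Cre where its description names OMP-ires-GFP, and it was grouped by the description. Treatment was none in all groups, and the labels used here give neither age nor sex.

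There were 4 groups and 8 footprint libraries, 2 per group, but the table holds 1 column per group and assay. No spread between libraries can therefore be computed and no test is possible. Each ratio below has an exact 95% interval for counting error only. Reads from amplified libraries without molecular identifiers are not independent molecules, so these intervals are narrower than the true error. Where 4 values follow each other, they stand for control and then KO of Ngn1-GFP cells, followed by control and then KO of OMP-GFP cells. The footprint columns total 4456989, 3031489, 3576406 and 4100841 counts, and the RNA columns 89327877, 27786809, 31855259 and 26946592. Mex3a itself had 437, 28, 16 and 5 footprints and 9645, 656, 387 and 38 RNA reads, so it was low in both KO columns and also low in the OMP-GFP control.

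Odorant receptors are G protein-coupled receptors of the nose, and their genes stand in clusters along the chromosomes. Each mature olfactory neuron expresses a single receptor from a single allele, so a receptor's level in a bulk sample reflects both how many neurons chose it and how much each of them makes. Fewer cells and less RNA per cell cannot be told apart in such data. Receptors of a cluster such as this one are class II receptors, the large group typical of land vertebrates. By the family numbers in their older MOR names, 56 of the 57 fall into 13 families, of which MOR114 with 13 members and MOR110 and MOR111 with 10 members each are the largest.

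Close relatives matter for how reads are assigned, and the coding starts show how close some of these genes are. The first 50 coding bases, printed 5′ to 3′ with capitals at bases that differ from the partner, are from RefSeq (GRCm38.p6). Of the 57 genes, 45 had a RefSeq window, and in 44 of these the start codon lay at the annotated start. Among the 946 pairs of these 44 genes, the median pair differed at 24 of 50 bases. The closest pairs are shown because reads from their starts could be shared or exchanged. Olfr765 (chr10:129047012-129047061, minus strand) and Olfr767 (chr10:129079912-129079961, minus strand) differ at 1 base.
Olfr765: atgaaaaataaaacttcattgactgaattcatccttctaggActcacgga
Olfr767: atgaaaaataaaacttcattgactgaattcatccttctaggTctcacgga
Olfr825 (chr10:130163275-130163324, minus strand) and Olfr826 (chr10:130180829-130180878, minus strand), both of family MOR210, also differ at 1 base.
Olfr825: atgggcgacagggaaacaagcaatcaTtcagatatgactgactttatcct
Olfr826: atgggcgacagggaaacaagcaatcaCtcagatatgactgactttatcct
Olfr792 (chr10:129540539-129540588, plus strand) and Olfr798 (chr10:129626010-129626059, minus strand), both of family MOR108, differ at 2 bases.
Olfr792: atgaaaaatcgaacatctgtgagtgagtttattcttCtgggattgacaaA
Olfr798: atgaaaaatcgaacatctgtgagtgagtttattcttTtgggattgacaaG
Olfr782 (chr10:129350565-129350614, plus strand) and Olfr804 (chr10:129704880-129704929, plus strand), both of family MOR110, differ at 2 bases as well.
Olfr782: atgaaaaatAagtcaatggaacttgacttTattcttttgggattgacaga
Olfr804: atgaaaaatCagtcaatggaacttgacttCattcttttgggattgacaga
Olfr805 (chr10:129723493-129723542, minus strand) and Olfr806 (chr10:129738866-129738915, minus strand), again of MOR110, differ at 3 bases.
Olfr805: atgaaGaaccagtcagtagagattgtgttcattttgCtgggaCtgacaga
Olfr806: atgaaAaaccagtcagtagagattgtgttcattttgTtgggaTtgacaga

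In these windows a run of 28 identical bases, about the size of a footprint, was shared with another receptor by 10 of the 44 genes (22.7%) and by 152 of 639 other receptors (23.8%). The treatment of reads that match several genes is not stated in the sources used, so values of these 10 genes are uncertain. They are the printed pairs Olfr765 and Olfr767, Olfr792 and Olfr798, and Olfr805 and Olfr806, together with the pair Olfr814 and Olfr815, Olfr763 (shared with Olfr9) and Olfr819 (shared with Olfr247). The printed pairs Olfr825 and Olfr826 and Olfr782 and Olfr804 share no such run in these windows, and the rest of the coding sequence was not compared. Olfr794 and Olfr827, the most abundant members, are named without a sequence.

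A few receptors of the block carried a large part of its footprints. Olfr794 had 291, 206, 223 and 329 footprints, or 67.8, 70.6, 64.7 and 83.3 reads per kilobase of coding sequence, scaled to column depth (RPKM). Its level was similar in all 4 groups, and its mean of 71.6 RPKM ranked 5 among all 1104 receptors. Olfr827, at the far end of the block, had 228, 75, 214 and 157 footprints and 52.8, 25.5, 61.8 and 39.5 RPKM. It was lower in the KO column of both sorts and ranked 18. Olfr820, the only MOR116 member, had 17.7, 22.1, 28.6 and 30.4 RPKM and ranked 79. It was higher in both OMP-GFP columns than in both Ngn1-GFP columns. Olfr791 had 13.4, 19.3, 17.6 and 40.8 RPKM and ranked 95, and it stood out in the OMP-GFP KO. Olfr796 had 34.4, 9.90, 15.3 and 5.49 RPKM and ranked 179, with its highest level in the Ngn1-GFP control. Olfr826, the next in order, had 14.5, 12.3, 11.3 and 11.4 RPKM and was similar in all of them.

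**Figure D1:**
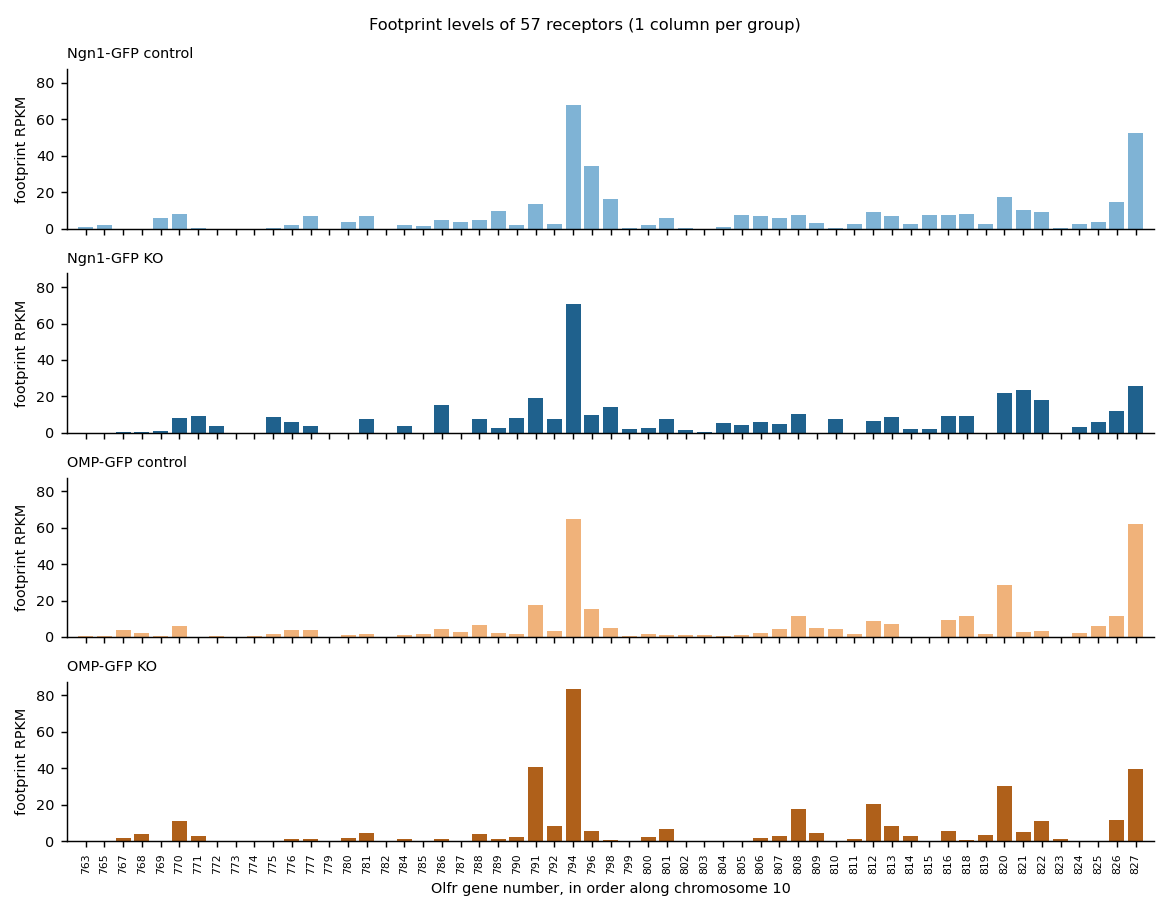
Footprint level in RPKM (vertical axis) of the 57 receptors in chromosome order (horizontal axis), 1 panel and 1 column of the table per group, so without error bars. Olfr794 is highest in every panel, Olfr827 is second in all but the OMP-GFP KO, where Olfr791 is just above it, and more bars are near 0 in the OMP-GFP KO than in the other panels.

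The order by RNA was different. Olfr812 had the highest mean RNA level of the block, 13.8 TPM (a length-scaled share of transcripts), with 7.50, 14.5, 13.1 and 20.1 TPM by group. Olfr791 followed at 13.4 and Olfr820 at 13.3, while Olfr794, first by footprints, ranked 6 with 12.4. RNA was also spread more evenly: the effective number of receptors, which is the number of equally abundant genes that would give the same evenness, was 45.7, 40.5, 42.1 and 40.6 by RNA. By footprints it was 24.8, 27.9, 20.6 and 16.2 of 57, or 43.6%, 48.9%, 36.2% and 28.5%. For all other receptors it was 568, 523, 563 and 513 of 1047, though a set of 1047 genes and a set of 57 need not behave alike in this measure. The 5 most abundant members of each column held 47.5%, 39.7%, 55.3% and 61.4% of the block's footprints, and the most abundant alone held 17.2%, 17.5%, 19.2% and 24.1%.

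The block was thinly covered. The median member had 15, 14, 7 and 5 footprints. At least 1 footprint was found for 49, 44, 50 and 38 members (86.0%, 77.2%, 87.7% and 66.7%), against 92.4%, 81.8%, 91.4% and 81.8% of other receptors. At the depth of the smallest column, 3031489 footprints, the expected share of members was 82.9%, 77.2%, 87.2% and 66.1%, and that of the others 91.0%, 81.8%, 90.9% and 81.0%. The OMP-GFP KO thus had the lowest share of members at equal depth too. Of the members, 28 (49.1%) had a footprint in all 4 columns, as did 70.0% of the other receptors. Olfr773, Olfr779 and Olfr782 had none in any column, and Olfr774 had footprints in the OMP-GFP control alone, with 2. A count of 0 allows up to 3 counts, which equals 0.609, 0.938, 0.881 and 0.811 CPM (counts scaled to column depth by the trimmed mean of M values, TMM). RNA reads were present for all 57 members in the first 3 groups and for 55 in the OMP-GFP KO.

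Between the Ngn1-GFP and OMP-GFP sorts, summed footprints of the other receptors together were higher in OMP-GFP cells, and those of the block were not. The block was not alone in this, as Olfr543 to Olfr691 had log2 ratios of 0.07 in controls and -0.05 in KO. The sorts are not pure stages, since Omp, a mature marker, had 12596 footprints in the Ngn1-GFP control and 9663 in the OMP-GFP control. In the controls the summed footprints of Olfr763 to Olfr827 were 344 CPM in Ngn1-GFP and 342 CPM in OMP-GFP cells. The log2 ratio was -0.01 (95% counting interval -0.12 to 0.10). The other receptors together went from 7196 to 9769 CPM, a log2 ratio of 0.44 (0.42 to 0.46). The difference between the block and the others was -0.45 (-0.56 to -0.34). Without Mex3a the block had 367 and 369 CPM and a log2 ratio of 0.00 (-0.11 to 0.12) against 0.31 for the others, a difference of -0.30 (-0.42 to -0.19). The direction of the block's own ratio depends on the scaling, since scaling by library size alone gives -0.22 in both pairs, but that moves block and others alike.

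The block's share of all receptor footprints stepped down accordingly. It was 4.56% (exact interval 4.35% to 4.77%) in the Ngn1-GFP control and 4.29% (4.05% to 4.54%) in its KO. Among OMP-GFP cells it was 3.38% (3.19% to 3.58%) in the control and 3.50% (3.32% to 3.69%) in the KO. All 4 values lie below the 5.16% that the block makes up of the receptor genes. By RNA the share was 5.61%, 4.80%, 3.84% and 3.84%, so the Ngn1-GFP control lay above that mark by RNA and the other groups below it.

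Receptor by receptor, a member was called higher or lower when it reached 20 counts in both columns together, a ratio of at least 2-fold and an interval that excluded 1. In the controls 32 members had enough footprints. None was called higher in OMP-GFP cells and 10 (31.3%) were called lower. Of all 12387 genes measured, 6.11% were called higher and 17.4% lower, and of 733 other receptors 24.7% were higher and 7.09% lower. The median log2 ratio was -0.10 for the members and 0.45 for the other receptors. Between the KO groups 27 members were measured, of which 2 were higher and 10 lower, with a median of -0.56. There the background was 11.3% higher and 18.4% lower over all genes, and other receptors stood at 29.3% higher and 15.8% lower with a median of 0.35.

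**Figure D2:**
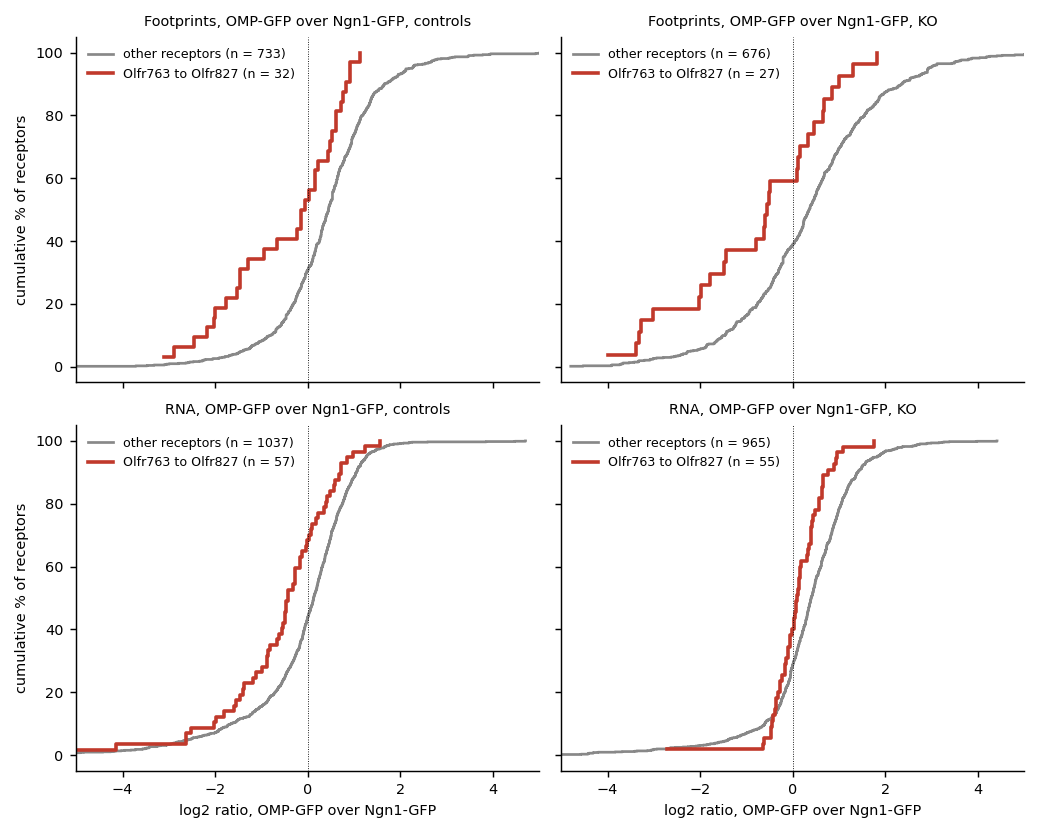
Cumulative share of receptors (vertical axis, percent) by log2 ratio of OMP-GFP over Ngn1-GFP (horizontal axis) for footprints (top) and RNA (bottom), in controls (left) and KO (right). The red line of Olfr763 to Olfr827 lies left of the grey line of all other receptors over most of each panel, and values below -5 or above 5 are outside the axis.

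The ratios differed between count classes, although a lower level itself moves a member into the class with fewer counts. In the control pair the 17 members with 20 to 49 footprints had a median log2 ratio of -0.67, and the 15 with 50 or more had 0.15, while the other receptors had 0.46 and 0.44 in these classes. Of the 15, 3 were called lower, as were 21 of 443 other receptors with 50 or more. Between the KO groups the 15 weaker members had a median of -1.49 and 1 of them lay above 0. The 12 stronger members had a median of 0.56 and 10 of them lay above 0, against 0.34 and 0.36 for the other receptors. The median therefore changes sign with the count minimum. The summed ratio of the block also rests on its strongest genes. Without the 5 highest (Olfr794, Olfr827, Olfr820, Olfr791 and Olfr796) it is -0.26 in controls and -0.57 in KO, and the difference from the other receptors is -0.70 and -0.88. This division into count classes was chosen after the values were seen.

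By the interval limit nearest 0, the members lowest in this comparison were Olfr815, Olfr769, Olfr805, Olfr789 and Olfr821, compared between the OMP-GFP control and the Ngn1-GFP control. Olfr815 (MOR113) had 32, 6, 0 and 0 footprints and was 7.38-fold lower in the OMP-GFP control with the 0 set to 3 counts, with a counting limit of at least 5.66-fold. It is one of the genes that share a run of bases with a neighbour, Olfr814. Its RNA did not follow, at 2.88, 3.93, 3.66 and 4.03 TPM. Olfr769 had 25, 3, 2 and 0 footprints, a log2 ratio of -3.11 (-6.23 to -1.11) in the control pair. Olfr805 had 32, 13, 4 and 0 footprints and a ratio of -2.47 (-4.43 to -0.97). Olfr769 was high in the Ngn1-GFP control alone, and Olfr805 was low in both OMP-GFP columns. Olfr789 had 41, 7, 7 and 4 footprints, a ratio of -2.02 (-3.42 to -0.85), and it too was high in that column only. Olfr821 had 44, 67, 9 and 19 footprints and a ratio of -1.76 (-2.98 to -0.70), and it was higher in both Ngn1-GFP columns than in both OMP-GFP columns. The other members called lower were Olfr781, Olfr798, Olfr801, Olfr806 and Olfr822.

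Among KO cells the 2 members called higher in OMP-GFP cells were Olfr812, with 19 and 77 footprints and a log2 ratio of 1.81 (1.07 to 2.62), and Olfr791, with 55 and 157 and a ratio of 1.30 (0.85 to 1.77). Neither was called in the control pair. Olfr775 had 25 footprints in Ngn1-GFP KO cells and 0 in OMP-GFP KO cells, 9.64-fold lower with the 0 set to 3 counts and at least 7.28-fold by its counting limit. Olfr810 had 21 and 0, 8.10-fold lower on the same terms and at least 6.02-fold by its limit. Olfr775 had at most 5 footprints in every column other than the Ngn1-GFP KO. Olfr786 had 43 and 5 footprints and a ratio of -3.31 (-5.01 to -1.98). Olfr798 had 41 and 3 and a ratio of -3.98 (-6.32 to -2.33), and Olfr818 had 27 and 3 and a ratio of -3.38 (-5.74 to -1.68). Of these, Olfr798 was lower in OMP-GFP cells in both genotypes, while Olfr818 had 35 and 40 footprints in the 2 controls. The remaining members called lower were Olfr771, Olfr776, Olfr790, Olfr806 and Olfr821.

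By RNA the block again lay below the other receptors as a sum. In the controls the block's RNA went from 241 to 181 CPM, a log2 ratio of -0.42 (-0.46 to -0.37) against 0.16 for other receptors, a difference of -0.57. Without Mex3a it went from 183 to 197 CPM, 0.11 (0.05 to 0.16) against 0.44, a difference of -0.34. With library size alone the KO value is -0.01. In the controls 2 of 57 members were called higher and 15 lower, against 3.43% higher and 24.1% lower of all genes and 118 higher and 160 lower of 1037 other receptors. For the KO groups 2 of 55 were higher and 1 lower, against 4.77% and 16.4% of all genes and 204 and 66 of 965 other receptors.

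Several members had most of their RNA in the Ngn1-GFP control. The pseudogene Olfr779 had 459, 22, 1 and 0 reads, a log2 ratio of -7.31 (-12.62 to -4.83) between controls, and Olfr773 had 153, 1, 3 and 0 reads with a ratio of -4.14 (-6.43 to -2.57). Neither had a footprint. Olfr819, which shares a run of bases with Olfr247, had 750, 35, 45 and 41 reads, a ratio of -2.53 (-2.99 to -2.09). Olfr824 had 269, 15, 15 and 21 reads and Olfr823 had 215, 17, 12 and 20, each with a ratio of -2.63. Relative to depth, the last 3 genes were high in the Ngn1-GFP control and lower in the other 3 columns. Among those columns the few reads varied, with Olfr823 at 0.584, 0.385 and 0.768 CPM. Olfr803 had 38, 12, 39 and 10 reads and Olfr785 had 16, 3, 13 and 5, and these were the 2 called higher, with ratios of 1.57 (0.89 to 2.25) and 1.23 (0.06 to 2.38). In the KO pair Olfr790 was higher with a ratio of 1.75 (0.77 to 2.82) from 12 and 36 reads, as was Olfr772 with 1.07 (0.18 to 2.02) from 17 and 32 reads. Olfr779, with 22 and 0 reads, was 6.56-fold lower with the 0 set to 3 counts and at least 4.90-fold by its counting limit.

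Among 9 blocks of receptor numbers, Olfr763 to Olfr827 had the lowest summed footprint ratio of OMP-GFP over Ngn1-GFP in controls. Olfr543 to Olfr691, which holds most class I receptors, was next at 0.07, and Olfr828 to Olfr984 was highest at 0.72. In the KO pair Olfr543 to Olfr691 was lowest at -0.05, Olfr763 to Olfr827 was second at 0.00 and the other 7 lay between 0.28 and 0.63. By RNA Olfr763 to Olfr827 was lowest in both pairs, with the next block at -0.14 in controls and 0.26 in KO. This ranking of blocks has no test and was chosen after earlier results were known.

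Between control and KO the block's summed footprints were about level in both sorts. In Ngn1-GFP cells the log2 ratio of KO over control was 0.10 (-0.01 to 0.21), against 0.19 for other receptors. In OMP-GFP cells it was 0.11 (-0.00 to 0.22), against 0.06. In both sorts single members moved by several fold in either direction around these sums. A difference between a KO and a control column cannot be told apart here from a difference between 2 sorts of cells. Markers of sustentacular cells, the supporting cells of the epithelium, moved with the Ngn1-GFP pair, at 4504 CPM in the control and 473 in the KO, with all 8 listed genes lower. Gland markers moved with the OMP-GFP pair, at 62.3 and 537 CPM, with 5 of 6 measured genes higher. Sustentacular markers moved with that pair too, at 152 CPM in the control and 411 in the KO, with 4 of 7 measured genes higher. Their part in the receptor values was not tested.

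In Ngn1-GFP cells 35 members were measured by footprints, of which 9 (25.7%) were called higher and 4 (11.4%) lower in the KO. Over all genes 6.49% were higher and 10.8% lower. Of 685 other receptors 138 were higher and 116 lower. The median log2 ratio was 0.38 for the members and 0.18 for other receptors. Of the 9 higher members, 6 had fewer than 50 counts in the pair, and with that minimum 3 of 17 were higher and 1 lower. Of 403 other receptors with that minimum 72 were higher and 50 lower.

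The largest ratios came from genes with 1 or 2 footprints in the Ngn1-GFP control, though RNA reads of Olfr771, Olfr775 and Olfr810 numbered 209, 426 and 650 there. Olfr771 (MOR114) had 1, 26, 0 and 11 footprints, 40.0-fold higher in the KO with a lower limit of 6.58-fold. Olfr775 (MOR111) had 1, 25, 5 and 0 footprints, 38.5-fold with 6.30-fold as the lower limit. Olfr810 (MOR113) had 2, 21, 14 and 0 footprints, 16.2-fold with 3.95-fold as the lower limit. The RNA of Olfr775 went the other way, with 426 and 58 reads and a log2 ratio of -1.25 (-1.67 to -0.85). Its footprints per RNA read therefore differed by 6.51 on the log2 scale (3.60 to 9.42).

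The next members by the interval limit had more footprints in the control. Olfr786 had 20, 43, 14 and 5 footprints and was higher in the Ngn1-GFP KO by a log2 ratio of 1.73 (0.93 to 2.57). Olfr790 had 8, 24, 5 and 8 and a ratio of 2.21 (1.01 to 3.57). Both were highest in the Ngn1-GFP KO. Olfr796 (MOR269) had 143, 28, 51 and 21 footprints, lower by 3.32-fold in the Ngn1-GFP KO, a ratio of -1.73 (-2.37 to -1.14). Olfr789 had a ratio of -1.93 (-3.33 to -0.76), Olfr769 one of -2.44 (-4.81 to -0.72) and Olfr815 one of -1.79 (-3.34 to -0.51). These 3 had 41, 25 and 32 footprints in the Ngn1-GFP control and 7, 3 and 6 in the KO. They are also among those lowest in the OMP-GFP control. Both comparisons use the Ngn1-GFP control column, so these are not separate observations. The other members called higher were Olfr776, Olfr792, Olfr821 and Olfr822. Of the members higher here, Olfr771, Olfr775, Olfr776, Olfr786, Olfr790, Olfr810 and Olfr821 were also called lower in OMP-GFP cells between the KO groups. That pair shares the Ngn1-GFP KO column, so these are not separate observations either.

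By RNA no member was called higher in the Ngn1-GFP KO and 14 of 56 were called lower, against 4.4% higher and 11.9% lower of all genes. Of 1033 other receptors 64 were higher and 226 (21.9%) lower. The summed ratio was -0.40 (-0.44 to -0.35), with -0.16 for other receptors. Olfr773 was lowest at -5.63 (-10.94 to -3.13), followed by Olfr819 at -2.79 (-3.32 to -2.30), Olfr779 at -2.75 (-3.44 to -2.14), Olfr782 at -2.62 (-3.23 to -2.06) and Olfr824 at -2.54 (-3.39 to -1.79). Olfr773, Olfr779, Olfr819 and Olfr824 are also among those lowest by RNA in the OMP-GFP control. Both comparisons share the Ngn1-GFP control column, so these are not separate observations. Across the 57 genes, not independent replicates, the Spearman correlation of RNA levels between the Ngn1-GFP control and the other columns was 0.64 to 0.71. Among those 3 columns it was 0.87 to 0.94. For the 1047 other receptors the same values were 0.73 to 0.80 and 0.81 to 0.87. By footprints the block's were 0.63 to 0.70 and 0.61 to 0.67, and those of the other receptors were 0.70 to 0.81 and 0.71 to 0.80.

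In OMP-GFP cells 23 members were measured by footprints, with 6 (26.1%) higher and 4 (17.4%) lower in the KO. The background over all genes was 7.12% higher and 8.54% lower, and 104 of 693 other receptors were called in each direction. Olfr791 had 59 and 157 footprints, 2.45-fold higher with a log2 ratio of 1.29 (0.85 to 1.75). Olfr812 had 30 and 77 footprints and a ratio of 1.24 (0.61 to 1.90). Both were well covered. Olfr801 had 4 and 27 footprints and a ratio of 2.63 (1.11 to 4.61). Olfr822 had 11 and 42 with 1.81 (0.83 to 2.92), and Olfr792 had 11 and 32 with 1.42 (0.39 to 2.56). Olfr781 was the sixth, with an interval that reached down to 0.04.

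The members called lower in the OMP-GFP KO were nearly emptied of footprints, apart from Olfr796. Olfr818 (MOR110) had 35, 27, 40 and 3 footprints, a log2 ratio of -3.86 (-6.19 to -2.21), with 123 and 105 RNA reads in the OMP-GFP pair. Olfr825 (MOR210) had 17, 18, 20 and 0 footprints and was 7.24-fold lower with the 0 set to 3 counts and at least 5.37-fold by its counting limit, with 114 and 60 RNA reads. It shares all but 1 of its first 50 bases with Olfr826, which had 38 and 44 footprints. Olfr798 (MOR108) had 68, 41, 17 and 3 footprints, a ratio of -2.62 (-5.04 to -0.83), while its RNA was higher in the KO with 25 and 56 reads and a ratio of 1.42 (0.72 to 2.16). Footprints per RNA read of Olfr798 therefore differed by -4.05 (-5.94 to -2.15). Its close relative Olfr792 was higher in the same comparison, as given above. Olfr796 had 51 and 21 footprints and a ratio of -1.40 (-2.21 to -0.64).

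By RNA 5 of 54 members were higher in the OMP-GFP KO and 3 lower, against 4.4% and 3.89% of all genes and 92 and 93 of 961 other receptors. The summed ratio was 0.13 (0.07 to 0.18), the same as for other receptors at 0.13. Olfr813 had 144 and 269 reads, a log2 ratio of 1.16 (0.86 to 1.46). Olfr810 had 162 and 286 reads and 1.08 (0.80 to 1.37), although its footprints were 14 and 0, too few to be measured. Olfr776 was higher at 1.37 (0.67 to 2.10) and Olfr784 at 1.00 (0.47 to 1.54), just at the threshold. Olfr803 was lower at -1.70 (-2.87 to -0.68), Olfr802 at -1.38 (-2.26 to -0.57) and Olfr782 at -1.06 (-1.94 to -0.25).

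The KO over control ratios of the 2 sorts share no column and can be set side by side. There were 21 members measured in both, and 15 (71.4%) had the same sign, as did 356 of 601 other receptors (59.2%). Olfr792 and Olfr822 were called higher in both sorts and Olfr796 was called lower in both. Olfr796 is the best covered of the 3. For 7 of the 21 the interval of the difference between the 2 ratios excluded 0. Among them is Olfr825, whose 0 in the OMP-GFP KO was set to 3 counts. The matching count among the 601 other receptors was not made, so the 7 of 21 has no background beside it. Members under the count minimum in either sort are outside this set, such as Olfr810, which was called higher in the Ngn1-GFP KO and had 14 and 0 footprints in OMP-GFP cells.

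**Figure D3:**
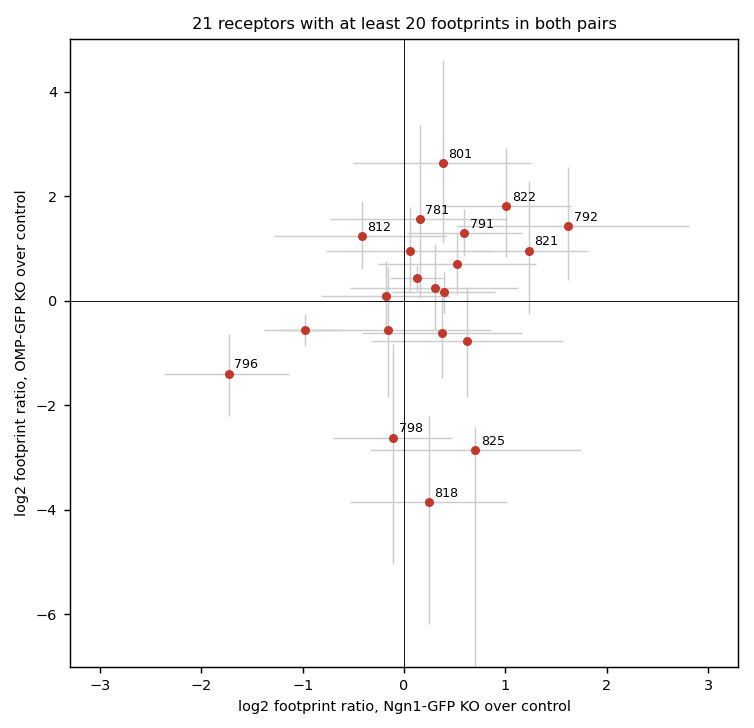
Log2 footprint ratio of KO over control in Ngn1-GFP cells (horizontal axis) and OMP-GFP cells (vertical axis) for the 21 receptors with at least 20 footprints in both pairs, with 95% counting intervals as grey lines, and the number after Olfr printed for members called in either sort. Olfr792 and Olfr822 lie high on both axes, Olfr796 lies low on both, and Olfr798, Olfr818 and Olfr825 are low on the vertical axis only. The interval of Olfr825 runs below the axis.

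Per RNA read, the block carried fewer footprints than other receptors in every group. The ratio of scaled footprints to scaled RNA, which has meaning only relative to other genes, was 1.43, 2.01, 1.89 and 1.87 for the block and 1.78, 2.26, 2.16 and 2.06 for the others. The log2 difference was -0.32 (-0.39 to -0.24), -0.17 (-0.26 to -0.08), -0.19 (-0.28 to -0.10) and -0.14 (-0.23 to -0.05). Without Olfr794 it was -0.55, -0.37, -0.42 and -0.47, so the most abundant member moved it by over 1.5 times in each group. Without the 5 highest it was -0.90, -0.50, -0.997 and -1.09. The median member with at least 20 RNA reads had 0.878, 1.60, 0.861 and 0.811, against 1.45, 1.77, 1.86 and 1.61 for other receptors. Members with enough RNA but no footprint numbered 8 of 56, 8 of 47, 4 of 51 and 12 of 49. As a share these are 14.3%, 17.0%, 7.84% and 24.5%, each above the 6.88%, 11.0%, 2.72% and 9.99% of the other receptors.

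Members differed widely in this ratio. Olfr794 had 8.43, 6.87, 7.02 and 10.7 and Olfr827 had 3.37, 4.04, 8.03 and 6.95, so both were far above the block's median in every group. Olfr770 had 3.96, 5.66, 4.07 and 12.3, and Olfr796 was at 4.26 and Olfr798 at 4.25 in the Ngn1-GFP control. Among members with at least 20 footprints and 20 RNA reads, Olfr812 (1.01), Olfr788 (1.24) and Olfr813 (1.53) were lowest in the OMP-GFP control. All lie above the block's median of 0.861 there, because the footprint minimum leaves out lower members such as Olfr801 at 0.148. In the Ngn1-GFP control the lowest were Olfr801 with 0.65, Olfr777 with 0.71 and Olfr813 with 0.72, of those with at least 20 footprints and 20 RNA reads. Olfr782 had 513, 27, 45 and 18 RNA reads and 0 footprints in all 4 columns, while Olfr804, which differs from it at 2 of the first 50 bases, had 3, 15, 2 and 0 footprints and 291, 73, 55 and 61 RNA reads. Across the 57 genes, which are not independent replicates, the Spearman correlation of footprints with RNA was 0.53, 0.62, 0.65 and 0.62, and for the 1047 others 0.57, 0.64, 0.66 and 0.64.

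**Figure D4:**
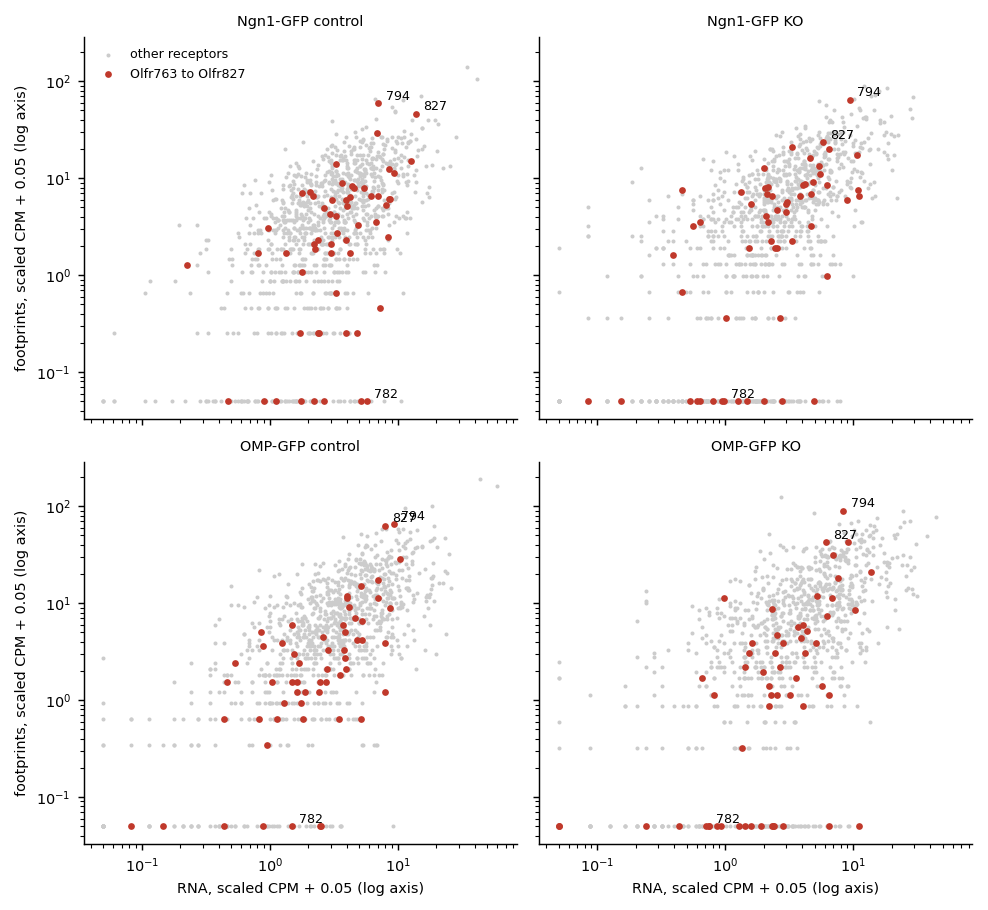
Footprints against RNA in scaled CPM plus 0.05 (both axes logarithmic) for the 57 receptors of the block in red and all other receptors in grey, 1 panel per group. Olfr794 and Olfr827 lie near the upper edge of the cloud, and Olfr782 lies on the line of 0 footprints in all 4 panels.

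Of the families with 2 or more members in the block, MOR114 held the most footprints and MOR111 the fewest per member. The 13 members of MOR114 had 491, 369, 343 and 587 footprints, and Olfr794 and Olfr791 contributed 329 and 157 to the last value. The 5 members of MOR210, Olfr823 to Olfr827, had 317, 138, 280 and 205, lower in both KO columns, and Olfr827 dominates them. The 10 members of MOR111 had 113, 120, 83 and 28 footprints but 2018, 541, 671 and 527 RNA reads. Their footprints per RNA read were 1.03, 2.02, 1.13 and 0.374, lowest in the OMP-GFP KO. The 10 members of MOR110 had 0.832, 1.29, 0.837 and 0.903 footprints per RNA read, low in all groups, and MOR114 had 1.80, 2.29, 2.18 and 3.10. These families were compared after the values were seen, and their members share sequence and position.

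**Figure D5:**
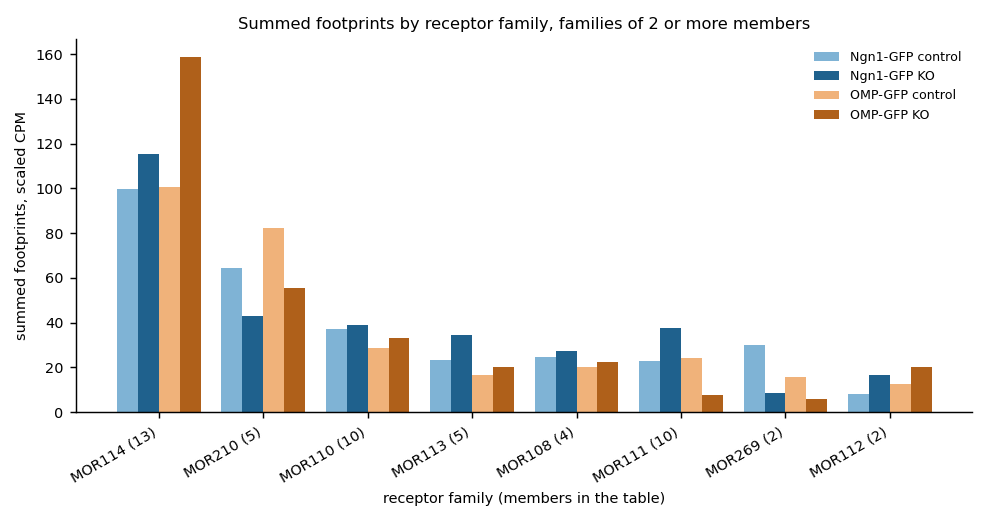
Summed footprints in scaled CPM (vertical axis) of receptor families with 2 or more members in the block (horizontal axis, with the number of members), 1 bar per group without error bars. MOR114 reaches 159 CPM in the OMP-GFP KO, and MOR111 stands at 7.57 CPM there.

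Genes that serve all receptors were set beside the block. The list of 30 genes for receptor signalling, transport and choice was measured in full, and 0 were called in either KO comparison, by footprints or RNA. Between sorts, footprints in the controls were higher in OMP-GFP cells for 4 and lower for 2. The higher ones were the channel subunit Cnga4 (log2 ratio 1.13), the chloride channel Ano2 (1.24), the receptor transporter Rtp2 (1.06) and Reep1 (1.42). The lower ones were Lhx2 (-1.75), a homeodomain factor that binds receptor enhancers, and the heterochromatin protein Cbx5 (-1.17). In the KO pair the G protein subunit Gnal (1.12), Cnga4 (1.12) and Ano2 (1.06) were higher, and Lhx2 (-1.55), its cofactor Ldb1 (-1.09) and the histone methyltransferase Ehmt1 (-1.33) were lower. By RNA 7 were higher and 0 lower in controls, and 4 were higher and 1 lower in the KO pair. Over all genes, footprints were higher for 6.11% and lower for 17.4% in controls, and for 11.3% and 18.4% in the KO pair. By RNA these shares were 3.43% and 24.1% in controls and 4.77% and 16.4% in the KO pair. Summed over 8 mature neuron markers, footprints were 11385, 12601, 18203 and 22357 CPM, and over 8 immature neuron markers 5475, 6076, 3701 and 3945 CPM. Footprints of 2 of the 8 mature markers were called higher and of 4 of the 8 immature markers lower in OMP-GFP controls, while Omp itself had 12596 and 9663 footprints and a log2 ratio of 0.15. Of the immature neuron markers, Stmn1 had 31, 19, 0 and 1 footprints. Its RNA reads numbered 101662, 22416, 9087 and 6912, so its footprints were few for its RNA in every column. Sustentacular markers, at 4504, 473, 152 and 411 CPM, had all 8 genes lower in OMP-GFP controls. Markers of vessels and mesenchyme were at 1247, 1517, 162 and 192 CPM, of horizontal basal cells at 97.1, 112, 1.47 and 0.811 CPM with Trp63 and Krt14 at 0 in both OMP-GFP columns, and of immune cells at 25.2, 10.3, 13.8 and 19.7 CPM. By summed footprints, markers of sustentacular cells, vessels and mesenchyme and horizontal basal cells were lower in both OMP-GFP columns than in both Ngn1-GFP columns. Immune markers were not. Summed RNA of the sustentacular markers went the other way in the KO pair, with 190 CPM in Ngn1-GFP and 325 in OMP-GFP cells. Of 6 vessel and mesenchyme markers, 2 were higher and 3 lower in that pair by footprints. The part of these cells in the block's lower ratio was not tested.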

How the data were processed

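Per the submitters' processing notes, reads were handled with FastQC, cutadapt and STAR and the genome was mm10. Not given in the sources used here are the counter, the treatment of reads that match several genes and the making of 1 column from 2 libraries. The columns hold, per the file headers, footprint and RNA counts over coding sequences, the coding length (in bases, another measure), footprint RPKM, RNA TPM and the authors' translational efficiency, a ratio, for each group. RPKM recomputed from the deposited counts and lengths matched the deposited values within rounding, and the deposited TPM sum to the same total in each column.

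Counts were scaled by TMM (edgeR 4.0.16, R 4.3.3) over the 13479 footprint and 16388 RNA genes that pass filterByExpr at 10 counts. Ratios, exact conditional binomial 95% intervals, exact binomial (Clopper-Pearson) shares and hypergeometric rarefaction came from scipy 1.17.1, pandas 2.3.3 and numpy 2.4.6 under Python 3.11.15, and matplotlib 3.10.9 drew the plots. Intervals of differences and of footprints per RNA read are approximate. Genes with fewer than 20 counts in a pair were not called, and a 0 was set to 3 counts. DESeq2 1.42.0 size factors, library size alone, other count minimums and fold thresholds, and the sums without the most abundant members were tried as alternatives.

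Named members were the 6 with the highest mean RPKM, up to 5 called per comparison and direction by the interval limit nearest 0, the 3 highest and lowest in footprints per RNA read, and those with footprints in 1 group or none. The members, gene lists and rules were chosen with earlier results of these data known. Gene positions, MOR names and start sequences are RefSeq's (GRCm38.p6). The sequence windows begin at the start codon for most members, so coding starts are printed and promoters are not used here, and neither are proteins.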

Additional observations from a re-analysis of the deposited data

Results flagged for a closer look

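For 7 of the 21 members with at least 20 footprints in both pairs, KO over control footprint ratios differed between the 2 sorts. In each the approximate interval of the difference between OMP-GFP and Ngn1-GFP cells excluded 0. How often this holds among other receptors was not counted. The differences are OMP-GFP minus Ngn1-GFP on the log2 scale, described from 1 column per group and not tested. Of these 7, Olfr818 had the lowest value at -4.10 (-5.95 to -2.26), with 35 footprints going to 27 in Ngn1-GFP cells and 40 going to 3 in OMP-GFP cells. Olfr825 followed at -3.56, from 17 and 18 footprints against 20 and 0, with the 0 set to 3 counts. Its limits of -5.56 to -1.57 treat these 3 counts as observed, while a count of 0 leaves the lower limit open. Olfr798 stood at -2.51 (-4.37 to -0.66) and Olfr788 at -1.39 (-2.70 to -0.09). In the other direction Olfr801 was at 2.25 (0.53 to 3.98), Olfr812 at 1.66 (0.66 to 2.65) and Olfr791 at 0.70 (0.01 to 1.38). The intervals of Olfr788 and Olfr791 end close to 0. Below the count minimum in 1 of the sorts, Olfr810 at -6.36 (-9.12 to -3.60) and Olfr775 at -6.12 (-9.67 to -2.58) differed by more. Both had 0 footprints in the OMP-GFP KO, again set to 3 counts in the values and their limits.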

How the results depend on the processing

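No paired analysis was possible because each group has a single column per assay and the columns carry no replicate numbers, and no library could be left out for the same reason. Scaling by DESeq2 size factors, by TMM without receptor, mitochondrial and ribosomal protein genes, and setting a 0 to 1 count kept every count of calls within 1.5 times. Footprint sums of OMP-GFP over Ngn1-GFP lie at 0 within their intervals and took either sign, at -0.017 and 0.0027 in controls and -0.0017 and 0.0010 in KO under the first 2 of these. With at least 50 counts in the pair, 3 of 17 members were higher and 1 lower by footprints in the Ngn1-GFP KO. Of 403 other receptors 72 were higher and 50 lower. In the OMP-GFP KO 3 of 12 members were higher and 1 lower, against 68 and 46 of 455 other receptors. For OMP-GFP over Ngn1-GFP 3 of 15 were lower in controls and 1 of 12 in KO. Among other receptors 21 of 443 and 37 of 404 were lower. The medians of these last pairs turned to 0.15 and 0.56. By RNA the same minimum left 1 of 56 higher in controls, against 115 of 1011 other receptors. In the KO pair it left 0 of 44 higher and 0 lower, against 177 and 44 of 868 other receptors. With no minimum, 9 were lower in the Ngn1-GFP KO and 9 in the OMP-GFP KO, 3 were higher in OMP-GFP controls, and 5 were higher and 17 lower in the KO pair. At 1.5-fold, 4 were higher by footprints in OMP-GFP controls and 5 in the KO pair. By RNA 5 were then higher and 25 lower in the Ngn1-GFP KO, 12 and 9 in the OMP-GFP KO, 8 were higher in OMP-GFP controls, and 6 were higher and 2 lower in the KO pair. At 1.5-fold and with no minimum, shares over all genes or other receptors were not computed, so these counts have no background. With library size alone, summed footprints of OMP-GFP over Ngn1-GFP were -0.22 in controls and -0.22 in KO. Summed RNA was -0.34 for the Ngn1-GFP KO, -0.46 for OMP-GFP over Ngn1-GFP controls and -0.010 for the KO pair, whose median turned to -0.034. By RNA 1 member was then higher in the Ngn1-GFP KO and 1 in the KO pair, and Olfr784 (0.98) and Olfr772 (0.96) fell below 2-fold.

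Without Olfr794 the summed footprint ratio in the KO pair was -0.12 and its difference from other receptors -0.42. The footprint share of receptors was then 3.80%, 3.57%, 2.75% and 2.68%, the RNA share 5.46%, 4.56%, 3.65% and 3.69%, and footprints per RNA read relative to other receptors -0.55, -0.37, -0.42 and -0.47. Without the 5 highest members the footprint ratio was 0.36 for the Ngn1-GFP KO (0.17 above other receptors), -0.26 for controls (difference -0.70) and -0.57 for the KO pair (difference -0.88). RNA in the OMP-GFP KO was then 0.21 (difference 0.082), footprint shares were 2.48%, 2.78%, 1.54% and 1.53%, RNA shares 4.51%, 3.88%, 3.03% and 3.20%, and footprints per RNA read -0.90, -0.50, -0.997 and -1.09. With at least 10 reads, 25 members were detected in OMP-GFP control cells and 23 in OMP-GFP KO cells. The authors' deposited translational efficiency gave member medians of 1.28, 2.16, 1.11 and 1.04. Beyond what each alternative does by construction, the cause was not tested. Depth limits most members, whose median count was 15 or fewer in every footprint column.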
